A study of Macaca mulatta with 64 samples.

Results

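Start positions that lie inside the annotated gene were described in rhesus macaque brain from 64 CAGE-seq libraries. A start position is the 1 coordinate given for a transcript cluster (TC) of read 5′ ends, and it was called interior when it lay more than 500 nt downstream of the annotated start of its gene, measured along the strand of the gene, and within the first 80% of the annotated span. This rule uses the coordinates alone and no expression value. It held for 58943 of the 160389 deposited positions, 36.7%, in 9281 of 13238 nuclear genes, and these positions carried 20.4% of the listed TPM, which here scales the tags of a position to all tags of its library and ignores how long the gene is. The comparison class was the 56655 positions near the annotated start, up to 500 nt inside the gene or upstream of it, which carried 52.4% of the TPM. The last part of the gene held 43570 positions and the mitochondrial genome 1221.

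The libraries came from the prefrontal (PFC), posterior cingulate (PCC), temporal (TC in the names of libraries and regions), parietal (PC) and occipital (OC) cortex, from CA1 and the dentate gyrus (DG) of the hippocampus, and from the cerebellar cortex (CB). The animals were untreated females and males of 1, 4, 10 and 20 yr, with 2 of each sex at each age, and each region, age and sex had 1 library from an age- and sex-matched pair of animals. The 8 combinations of age and sex are called animal groups and written as 1F to 20M. Spread was measured over animal groups and not within a combination, because each combination of region, age and sex was sequenced from 1 library. Tags per library, worked out from the size of 1 tag, were 1509872 to 6093861, and a library listed 644 to 23670 positions. CA1 libraries listed the most positions, 7001 to 23670, against 1696 to 7596 in DG. Cerebellar neuron markers summed to 2464 to 3686 TPM in CB and to 0 to 771 TPM elsewhere. Hippocampal neuron markers were highest in DG, at 2667 to 4464 TPM, but PROX1, a defining factor of dentate granule cells, was at 0 there. CA1, at 357 to 1146 TPM, lay within the neocortical range of 9.87 to 2052 TPM. These are whole tissue pieces, so fewer cells of a type and less RNA per cell cannot be told apart.

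Transcripts of RNA polymerase II receive a cap at the 5′ end soon after initiation, from enzymes that bind the polymerase, and CAGE reads that end. Many genes of the brain can be transcribed from more than 1 promoter, and a promoter inside the gene gives a shorter RNA whose protein may lack the first part of the full form. Myelin basic protein is the textbook case, since its myelin form starts inside the longer Golli unit. A tag inside a gene is a 5′ end and is not by itself a promoter, and whether the RNAs counted here carried a cap was not tested. Exons, introns and UTRs were not assigned here.

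Interior positions were found along the whole allowed span and were somewhat denser toward its far limit. The decile of the span from 10% to 20% held 9.86% of them, and the decile from 70% to 80% held 17.6%. By distance, 10.5% lay 501 to 1000 nt inside the gene and 19.1% lay more than 50000 nt inside. The nearest positions were stronger for their number, as the first distance class held 17.1% of the interior TPM and the last 11.8%. Recurrence was lower at each larger distance, from 27.3% of positions listed in more than 1 library at 501 to 1000 nt, over 22.7% at 2001 to 5000 nt, to 16.8% at 10001 to 50000 nt.

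**Figure D1:**
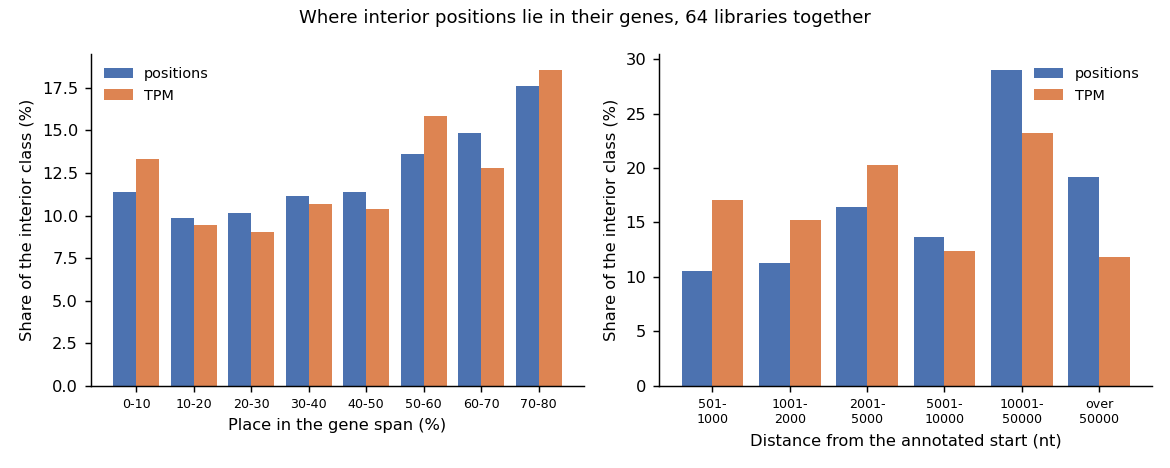
Share of the 58943 interior positions (blue) and of their summed TPM over 64 libraries (orange), in percent, by deciles of the gene span (left) and by distance in nt from the annotated start (right). Both shares are highest in the decile next to the 80% limit, at 17.6% and 18.6%, and the share of TPM exceeds that of positions up to 5000 nt.

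Positions just inside and just outside the limits of the rule had similar values. At 501 to 600 nt there were 1780 positions with a median of 24.3 TPM where listed, of which 30.5% recurred, and at 401 to 500 nt there were 2257 with 20.1 TPM, of which 30.4% recurred. At 75% to 80% of the span there were 5169 positions with 13.9 TPM and 18.9% recurring, and at 80% to 85% there were 6360 with 14.5 TPM and 20.1% recurring. Other genes lay close to few of the members. Of all interior positions, 521 (0.884%, with 3.42% of the interior TPM) lay within 500 nt of the start of another listed gene on the same strand, and 2007 of the 58943 (with 5.82% of the TPM) lay inside another listed gene on that strand.

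Most expressed genes had interior starts, and many had no start near the annotated one. Of the 9281 genes with interior positions, 7572 had a symbol, 5407 also had positions near the start, 3874 did not, and 1732 had interior positions alone. In 4339 genes, 46.8%, more of the TPM of the gene lay inside than outside the interior. Genes with interior positions were longer, with a median span of 29241 nt against 13865 nt in genes without, and 456 genes were too short to hold one. Within a single library, 75.8% ± 5.29 (SD, n = 64 libraries) of genes with an interior position had no position near the start. Where both were listed, the interior held more TPM in 45.2% ± 4.84 of genes. The range over libraries was 31.6% to 53.8%.

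Positions under 20 nt apart in a gene were joined into start clusters, which gave 39564 interior clusters. Of the genes, 3045 had 1 interior cluster, 3532 had 2 to 4, 1763 had 5 to 9 and 940 had 10 or more. Most were rare. They were listed in more than 1 library in 26.8% of cases, against 50.1% of the 21660 clusters near the start, and 8 were listed in all 64 libraries. The filter for tests, at least 1 TPM in at least 8 libraries, kept 2040 interior clusters of 1148 genes, 5.16%, and 3772 clusters near the start, 17.4%. Each region had 8 libraries, so a cluster listed in 1 region alone could pass. Interior clusters that passed had a median of 5 positions over 26 nt, and 329 of them, 16.1%, were a single position. Clusters near the start that passed had 7 positions over 40 nt, and 6.23% were a single position.

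Interior positions recurred between regions of the same animals less often than positions near the start. Within an animal group, 11.5% of interior positions and 18.9% of those near the start were listed in more than 1 of the 8 regions. The difference was −7.46 ± 0.516 percentage points (SD, n = 8 animal groups) and was negative in each of them (sign flips, exact and two-sided, p = 0.0078, the smallest that 8 groups allow). After joining into clusters the shares were 19.9% and 40.5%. Interior positions were also weaker where listed. The mean over regions of the library medians differed by −0.25 ± 0.046 on the log2 scale and was lower in each animal group (exact sign-flip test over 8, p = 0.0078). Recurrence was lower at every level of signal. Among positions whose highest value was under 10 TPM, 6.07% of interior and 12.6% of near-start positions were in more than 1 library, and among those that reached 200 TPM, 61.5% and 76.0% were.

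**Figure D2:**
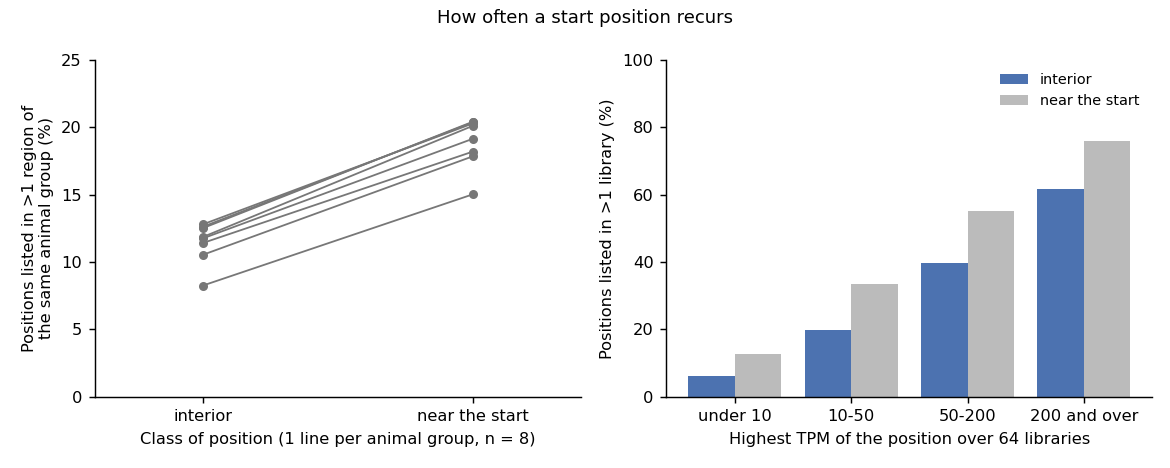
Left: percent of positions listed in more than 1 region of the same animal group, with a line for each of 8 animal groups joining the interior class and the class near the start. Right: percent of positions listed in more than 1 of 64 libraries, by the highest TPM of the position. Every line rises toward the class near the start, and the interior bar is the lower one at each level, from 6.07% against 12.6% to 61.5% against 76.0%.

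The share of a library's TPM at interior positions did not differ between regions past the threshold, but this depended on the rule for the interior. It was 21.1% ± 2.47 over the 64 libraries and ranged from 13.8% to 27.3%. Region means ran from 19.9% ± 1.55 in PCC to 22.5% ± 2.68 in OC (SD, n = 8), and the region test gave F = 1.22 (permutation test within animal groups, adjusted p = 0.446 over the 10 tests of both share measures). CB and the other 7 regions differed by −0.16 percentage points (exact sign-flip test, adjusted p = 0.8125), hippocampus and neocortex by −0.77 (adjusted p = 0.446). These shares overlapped in every pair of regions. With positions more than 2000 nt inside and in the first 50% of the gene the regions differed (F = 2.996, adjusted p = 0.0346), and the hippocampus was higher than the neocortex by 0.54 points, 6.81% against 6.27%, with 7 of 8 groups positive (sign flips, exact, adjusted p = 0.0391). With the 500 positions of highest TPM in each library, chosen after seeing the data, the regions also differed (F = 4.41, adjusted p = 0.0084), while the hippocampal difference was −2.87 points (adjusted p = 0.0781). Without 20F it was −1.46 points (adjusted p = 0.0521).

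The share of listed positions that were interior did differ between regions, with CA1 the highest. It was 35.8% ± 2.66 in CA1 (n = 8), and the other regions had means from 25.7% in PCC to 30.1% in the temporal cortex (F = 12.7, adjusted p = 1e-04, from the smallest p that 100000 permutations can give). The hippocampus exceeded the neocortex by 3.03 points, 31.9% against 28.9%, and was higher in each animal group (exact test by sign flips, adjusted p = 0.0391). With any 1 animal group left out, 2.33 to 3.32 points remained, with adjusted p from 0.0521 to 0.0781, where 7 groups allow no raw p below 0.0156 (exact). The difference rested on CA1. Without the CA1 libraries the difference was −0.82 points, and without the DG libraries it was 6.89. The number of listed positions moved with it. With the 500 positions of highest TPM in each library, the region test had an adjusted p of 0.612 and the hippocampal difference was −0.86 points. CB differed from the other regions by −1.36 points (adjusted p = 0.3125).

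**Figure D3:**
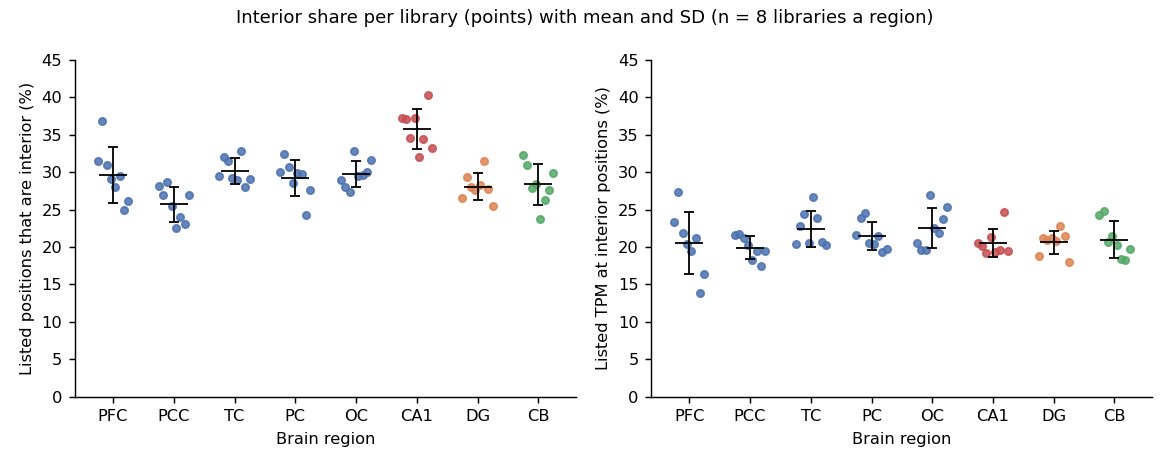
Percent of a library's listed positions (left) and of its listed TPM (right) that were interior, with a point for each library and the mean and SD of 8 libraries per region. CA1 stands highest in positions, at 35.8% ± 2.66, and not in TPM, where every region overlaps the others.

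The interior share of older and younger animals did not differ past the threshold after adjustment. The animal groups of 10 and 20 yr had 20.4% ± 0.669 of TPM at interior positions, and those of 1 and 4 yr had 21.8% ± 0.597 (n = 4 animal groups each). For positions the shares were 28.6% ± 0.812 and 30.5% ± 0.847. The 4 older and 4 younger groups did not overlap in either measure, which gave the smallest p this design allows, 0.0286, and an adjusted p of 0.0714 (exact permutation tests, two-sided). The difference was −1.35 points of TPM and −1.85 points of positions. With the 500 positions of highest TPM it was −0.46 points of TPM and −0.28 of positions (adjusted p = 0.612 and 0.679, exact), and with the stricter rule for the interior it was −0.62 and −0.87 points (adjusted p = 0.190 and 0.0571, exact). Females and males differed by −0.33 points of TPM and −0.86 points of positions (exact permutation tests, adjusted p = 0.794 and 0.5). Neither age nor sex differences varied between regions past the threshold (adjusted p from 0.286 to 0.971, permutation tests over animal groups). For age, the difference in TPM share ran from −5.53 points in PFC to 1.73 points in OC.

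The strongest interior clusters of genes with a symbol included genes of synapses, translation, glycolysis and protein folding. The first was in SNCB, which encodes beta-synuclein, a presynaptic relative of alpha-synuclein. The gene lies on chromosome 6 from 173107195 to 173135126 on the minus strand (MMUL 1.0), and a single position, 173113369, 21757 nt or 77.9% into the gene, carried 86.1% of the TPM of SNCB. It was listed in all 64 libraries, from 107.5 to 18455 TPM with a median of 4332, while no position near the start of SNCB was listed in any. CB had 3183, 9890 and 18455 TPM (lowest, median and highest of 8 libraries), OC 6186, 8485 and 9655 TPM, and DG 2807, 4534 and 7622 TPM. CA1 had 132, 482 and 664 TPM, so every CA1 library was below every DG, CB and OC library. The difference of CA1 from DG was −3.44 ± 0.55 (SE) on log2(TPM + 1), with a limma adjusted p of 1.31e-05.

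ARL6IP4, whose product takes part in RNA splicing, had the second. Its cluster of 14 positions led at 1506 nt inside a gene of 2629 nt (chromosome 11, 124248456 to 124251084, plus strand) and carried 93.2% of the TPM of ARL6IP4. It was in all 64 libraries with a median of 3528 TPM. CB had 22.1, 55.2 and 456 TPM, whereas PFC had 3640, 9179 and 12165 TPM. A low value was not confined to CB, as OC ranged from 13.5 to 3303 TPM and the temporal cortex from 6.40 to 14096 TPM. CB differed from the other regions by −5.28 ± 0.72 on the log2 scale (adjusted p = 1.98e-06, limma).

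Of the translation genes, RPL4 and EEF1A2 were among the strongest. RPL4, a protein of the large ribosomal subunit, had a single position 3106 nt inside a span of 5213 nt that was listed in 63 libraries, with a median of 1526 TPM and a highest value of 10512 TPM, and it held 97.3% of the TPM of RPL4. The 16 libraries of the temporal and occipital cortex lay between 2584 and 10512 TPM, and the median of CA1 was 538 TPM. EEF1A2, the elongation factor of neurons and muscle, had a single position 2675 nt inside, in 59 libraries with a median of 340 TPM and 55.4% of the TPM of EEF1A2. In CB against the other regions the adjusted p was 0.399 for RPL4 and 0.595 for EEF1A2 (limma), and neither passed for the hippocampus or for CA1 against DG. Single neocortical regions were not tested against each other.

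Of the glycolytic enzymes, aldolase A and GAPDH led. The cluster of ALDOA, 14003 nt inside, was in all 64 libraries with a median of 784 TPM, and ALDOA lies within the annotated span of TAOK2 on the same strand, so its tags and those of TAOK2 depend on the gene models. GAPDH had a single position 3476 nt inside a model of 50145 nt (chromosome 11, 6685783 to 6735927, plus strand), listed in 63 libraries. In DG it had 796, 1119 and 1978 TPM, and in CA1 37.8, 81.3 and 200.05 TPM, with no overlap. CA1 differed from DG by −3.77 ± 0.71 on the log2 scale (adjusted p = 1.70e-04, limma). The model of GAPDH overlaps NOP2, CHD4 and IFFO1 on the other strand.

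The glial gene CLU, which encodes the secreted chaperone clusterin, differed from these in that its start near the annotation was the stronger. Its leading interior cluster, 3791 nt inside, had a median of 684 TPM in 61 libraries and carried 6.57% of the TPM of CLU. MIR9-1HG, the host gene of a neural microRNA, had its cluster 7659 nt inside in all 64 libraries, with a median of 1070 TPM and 81.7% of the TPM of the gene. Region medians ran from 726 TPM in the temporal cortex to 2224 TPM in PCC, a difference that was not tested. The comparisons of CB, of the hippocampus and of CA1 with DG did not pass the threshold. MIR9-1HG overlaps ENSMMUG00000027037 on its strand, so its tags depend on the gene models.

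Cytoskeletal, folding and membrane genes followed. TPM3, a tropomyosin, had a cluster 9320 nt inside in 62 libraries with a median of 459 TPM, and TUBB1, a beta-tubulin, one 1325 nt inside in 59 with 370 TPM. FKBP3 and FKBP4, peptidyl-prolyl isomerases, had clusters 858 and 4547 nt inside, in 58 and 52 libraries. ITM2C, a membrane protein that binds the amyloid precursor, had a single position 8515 nt inside in 60 libraries with 471 TPM. Each of these 5 was at 0 in at least 1 PCC library, and none passed the threshold in the comparisons of CB, of the hippocampus or of CA1 with DG.

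Further members of the 20 strongest with a symbol were A4GALT, a glycolipid galactosyltransferase, in all 64 libraries with a median of 447 TPM, C1H1orf56 in 60 with 329 TPM, ZMIZ2, a coactivator of nuclear receptors, in 58 with 300.2 TPM, C3H7orf50 in 54 with 373 TPM, PTMA in 51 with 315 TPM, and SNRPN, an imprinted gene for a splicing protein, in 50 with 271 TPM. SNRPN was listed in 3 of 8 PFC libraries and in all 8 of CA1 and of CB. The span of ZMIZ2 overlaps H2AZ2 and PPIA, 1 of them on its strand, and that of SNRPN overlaps SNORD107 on its strand. The tags of ZMIZ2 and SNRPN thus depend on the gene models. RPL4, GAPDH, EEF1A2, ALDOA, PTMA and the tubulin and tropomyosin genes have close relatives or copies elsewhere in the genome, so which copy their tags came from is uncertain. Several clusters of genes without a symbol were as strong, the first in ENSMMUG00000011073, a single position 592 nt inside with a mean of 3016 TPM in 64 libraries, and the next in ENSMMUG00000032502, with a mean of 1114 TPM in 62. Both were chosen after their values had been seen.

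**Figure D4:**
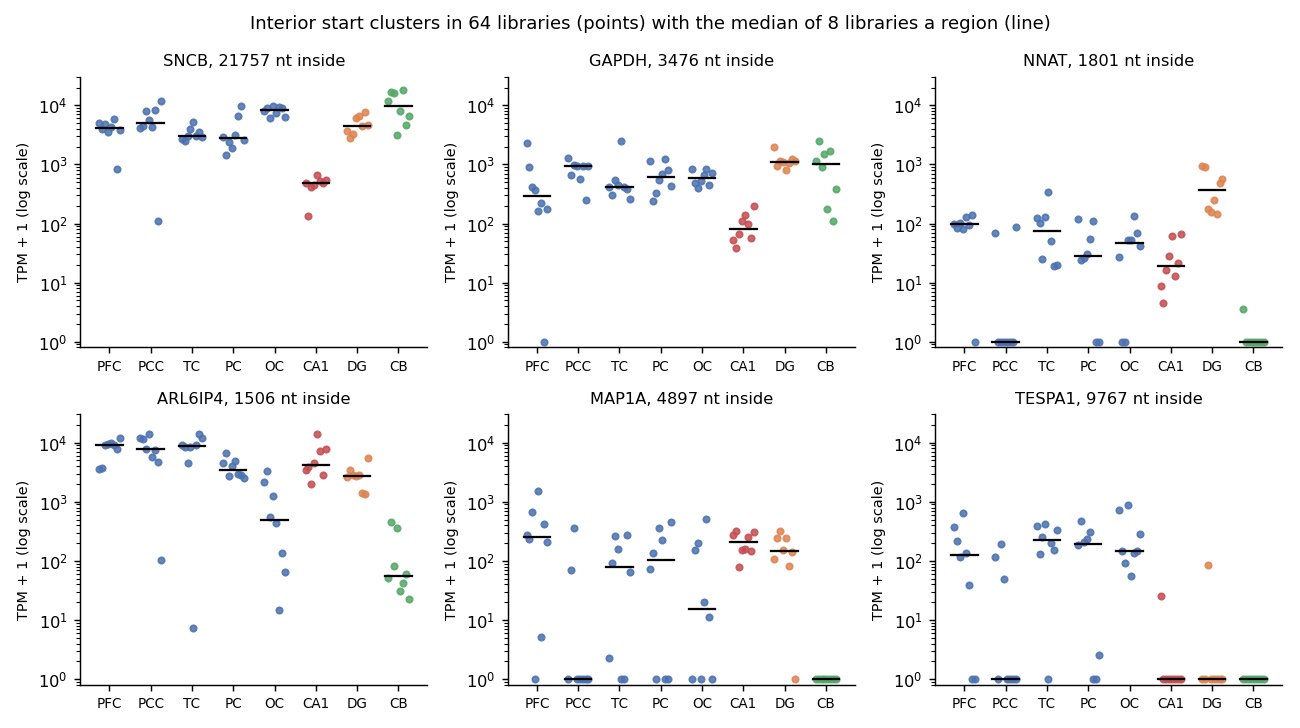
TPM + 1 on a log scale of 6 interior start clusters in 64 libraries, with a point per library and a line at the median of 8 libraries in each region. CA1 lies below DG in SNCB, GAPDH and NNAT, the CB median of ARL6IP4 is 55.2 TPM against 9179 TPM in PFC, and CB is at 0 in all 8 libraries in MAP1A and in TESPA1.

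CB differed from the other 7 regions in 41 of 2040 interior clusters, 18 higher and 23 lower, in 37 genes. This was 2.01%, and 1.26% of all 7479 clusters tested were called (limma on log2(TPM + 1), adjusted p under 0.05 over all clusters). Of all clusters, 0.588% were higher and 0.669% lower, and the median log2 difference of all clusters was −0.38, so a value of 0 lies above the bulk. Where a region is listed at 0, the log2 difference depends on the 1 TPM that was added and gives no fold. The balance of directions depended on the processing, with 35 higher and 25 lower after quantile normalization and 28 higher and 16 lower with no filter on low values. In 22 of the 41 the difference had the same sign in every animal group. This count and those like it below were not set against clusters of the other classes, so they describe the called interior clusters only.

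Of those higher in CB, 2 are described. A cluster of ENSMMUG00000028904, 800 nt inside a gene of 2193 nt on chromosome 19, was listed in 8 of 8 CB libraries at 393, 1069 and 6746 TPM and in 1 library elsewhere, a CA1 library at 2.29 TPM. It passed the filter of 8 libraries only through CB. ENSMMUG00000019192 was also higher in CB, by 2.17 ± 0.50 (SE) on the log2 scale (adjusted p = 0.00839, limma), at 29.4, 38.8 and 112 TPM, but DG was at 36.5, 55.1 and 118 TPM and PCC reached 131 TPM.

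Clusters of VGF, MAP1A, NNAT and NME1 were among those lower in CB. VGF, the precursor of secreted neuronal peptides, had a cluster 1188 nt inside that was listed in 0 of 8 CB libraries and in 39 of 56 others, up to 740 TPM (adjusted p = 0.00604). MAP1A, a microtubule-associated protein of mature neurons, had one 4897 nt inside that was in 0 of 8 CB libraries and in 40 of 56 others, with a median of 139 TPM (adjusted p = 0.00483). NNAT, a proteolipid of developing neurons, was in 1 of 8 CB libraries at 2.52 TPM and in 45 of 56 others, with a median of 53.4 TPM (adjusted p = 5.60e-05). These 3 were thus at or near 0 in CB, although 11 to 17 of the other libraries also listed none. NME1, a nucleoside diphosphate kinase, had 0, 0 and 49.0 TPM in CB and 0, 161 and 953 TPM elsewhere (log2 difference −4.75 ± 0.81, adjusted p = 1.24e-04). A second cluster of C3H7orf50, 89888 nt inside, was in 1 of 8 CB libraries (adjusted p = 3.65e-05). ENSMMUG00000001262 and ENSMMUG00000023563 were in 2 and 1 CB libraries, against medians of 556.97 TPM and 520.05 TPM in DG.

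Hippocampus and neocortex differed in 130 interior clusters, 6.37%, of which 124 were higher and 6 lower in the hippocampus. Of all clusters tested 7.59% were called, 7.14% higher and 0.455% lower, and the median log2 difference of all was 0.35. With quantile normalization 73 interior clusters were called, 61 higher and 12 lower. In 36 of the 130 the difference had the same sign in every animal group, 31 of them higher. The calls rested largely on CA1, since leaving out the CA1 libraries left 12, 6 in each direction, and leaving out the DG libraries gave 425. Oligodendrocyte markers, 10 genes, summed to 5365 to 8589 TPM in CA1 and to 883 to 4724 TPM in DG, and in the neocortex to 147 to 8280 TPM. Their part in these results was not tested.

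Of the 8 increases chosen by size, 3 were about as high in DG as in CA1. TPM1, a tropomyosin of the actin cytoskeleton, had a cluster 5863 nt inside that was listed in all 16 hippocampal libraries, at 71.6, 175 and 1109 TPM, and in 22 of 40 neocortical ones, with a median of 14.4 TPM (4.12 ± 0.91, adjusted p = 0.00196, limma). PTMA, the precursor of thymosin alpha and a nuclear protein of dividing and resting cells, had 196, 622 and 1061 TPM in the hippocampus and 0, 92.1 and 1844 TPM in the neocortex (3.66 ± 0.85, adjusted p = 0.00331). Both overlapped the neocortical range. RPAIN, which carries replication protein A into the nucleus, was higher by 3.11 ± 0.95 (adjusted p = 0.0304). Its leading position taken alone, as deposited, gave −0.67.

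A further 4 had higher medians in CA1 than in DG. COMMD9, a trafficking protein, was in 8 of 8 CA1 libraries, at 15.0 to 78.8 TPM, in 2 of 8 of DG, up to 181 TPM, and in 2 of 40 of the neocortex. ZDHHC14, a palmitoyltransferase, was in 8 of 8 CA1 libraries, at 12.8 to 164 TPM, in 2 of 8 of DG and in 1 of 40 of the neocortex. The clusters of COMMD9 and ZDHHC14 passed the filter of 8 libraries only through CA1, where they were high, so no p-value is given for them. ENSMMUG00000019630 and ENSMMUG00000017152 had CA1 medians of 67.4 and 545 TPM against 12.5 and 116 TPM in DG.

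Lower in the hippocampus were 2 neighbouring clusters of TESPA1, which acts in antigen receptor signalling of T cells and is also a gene of cortical excitatory neurons. The one 9767 nt inside was in 30 of 40 neocortical libraries, with a median of 140 TPM and up to 890 TPM, and in 2 of 16 hippocampal ones, at 24.1 and 83.2 TPM (−4.90 ± 0.69, adjusted p = 2.29e-06, limma). The one 9727 nt inside was in 25 of 40 and 3 of 16 (adjusted p = 3.23e-04). In CB neither was listed in any library. TYRO3, a receptor tyrosine kinase, had a single position in 24 of 40 neocortical libraries, with a median of 71.6 TPM, and in 6 of 16 hippocampal ones, none above 26.9 TPM (adjusted p = 0.0153). SNCB was also lower, at −1.53 ± 0.32 (adjusted p = 0.00122), but without the CA1 libraries its difference was 0.19.

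CA1 and DG differed in the most interior clusters, 274 of 2040 or 13.4%, of which 255 were higher and 19 lower in CA1. Of all clusters tested 15.4% were called, 13.7% higher and 1.63% lower. The median log2 difference of all clusters was 0.91, and CA1 libraries listed more positions. What part this had was not tested. With quantile normalization 129 interior clusters were called, 105 higher and 24 lower. The sign was the same in every animal group for 55 of the 274. Astrocyte markers, 13 genes, summed to 14080 to 23806 TPM in CA1 and to 6393 to 15916 TPM in DG, and oligodendrocyte markers did not overlap between the 2 regions. Their part in these differences was not tested.

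By the rule for naming, CA1 was above DG in every animal group, so each named increase was listed in all 8 CA1 libraries. The choice by size favoured clusters at or near 0 in DG, and most were in 0 to 2 of its libraries. MEF2C, a transcription factor of excitatory neurons, had a cluster 21575 nt inside with 18.0, 116.5 and 405 TPM in CA1, and it was in 1 DG library at 10.9 TPM. RIMS2, an active zone protein of the presynapse, had one 300542 nt inside with 10.0, 55.6 and 149 TPM in CA1 and was in 0 of 8 DG libraries. GNB5, a G protein beta subunit of neurons, had 25.5, 130 and 171 TPM in CA1 and reached 1.09 TPM in DG. SPARCL1, an astrocyte-secreted protein of synapse formation, had one 45832 nt inside with 35.5, 76.3 and 161 TPM in CA1 and was in 0 DG libraries. In each of these 4, picked by that rule, the lowest CA1 library was above the highest DG library. Their log2 differences were 5.47 to 6.39, with adjusted p from 2.06e-04 to 0.00103 (limma). None of the 4 was confined to CA1, as MEF2C was listed in 31, GNB5 in 33, SPARCL1 in 35 and RIMS2 in 19 of the 64 libraries. For hippocampus against neocortex none of them passed the threshold (limma, adjusted p from 0.461 to 0.918).

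LMAN1L, a lectin related to cargo receptors, had 20.2, 275 and 586 TPM in CA1 and was in 1 DG library at 33.4 TPM, inside the CA1 range. PIP4K2C, a phosphoinositide kinase, had one 23355 nt inside with a CA1 median of 49.4 TPM and none in DG. LUC7L3, a splicing factor, had a CA1 median of 95.8 TPM and was in 1 DG library at 47.0 TPM. ENSMMUG00000017868 had a CA1 median of 85.7 TPM. These clusters were not particular to CA1, since the temporal cortex listed LMAN1L in 7, PIP4K2C in 8 and LUC7L3 in 8 of 8 libraries.

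The decreases from DG to CA1, chosen in the same way, included several single positions. Besides SNCB and GAPDH, NNAT had 147, 364 and 953 TPM in DG and 3.45, 18.0 and 66.0 TPM in CA1, with no overlap (−4.17 ± 1.02, adjusted p = 0.00352, limma). SYT5, a synaptotagmin of secretory vesicles, had a single position 3495 nt inside with 8.94, 249 and 541 TPM in DG and 2.96, 12.7 and 15.7 TPM in CA1 (adjusted p = 0.0162). IFI6, an interferon-induced protein of mitochondria, had 16.6, 112 and 296 TPM in DG and was in 5 CA1 libraries, up to 39.2 TPM (adjusted p = 0.00393). A cluster assigned to TAOK2, a protein kinase, 1138173 nt inside, had 69.95, 143 and 351 TPM in DG and at most 23.8 TPM in CA1. ENSMMUG00000019192 had 36.5, 55.1 and 118 TPM in DG and at most 4.15 TPM in CA1 (adjusted p = 5.17e-07), and ENSMMUG00000012999 had an adjusted p of 0.0482. In NNAT, TAOK2 and ENSMMUG00000019192 every DG library was above every CA1 library. The comparisons of hippocampus with neocortex and of CA1 with DG share the CA1 and DG libraries, and the comparison of CB shares the libraries of all other regions with both.

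Single-position clusters were described apart, a split chosen after their values had been seen and not tested. Among the 329 interior clusters of 1 position the median log2 difference of CA1 from DG was 0.04, with 7 called higher and 9 lower. Among the 1711 of 2 or more positions it was 1.09, with 248 higher and 10 lower. Near-start clusters had medians of 0.35 and 1.23. In mean level the 2 kinds of interior cluster were alike, with medians of 11.3 and 11.1 TPM.

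**Figure D5:**
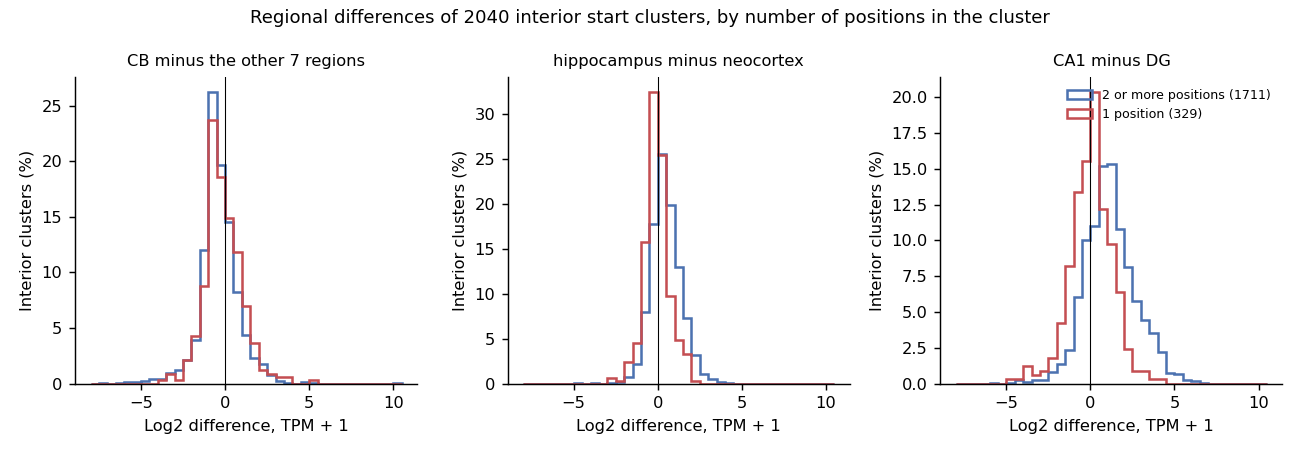
Distribution of log2(TPM + 1) differences of the 2040 interior clusters, in percent of clusters per bin, for CB against the other 7 regions, hippocampus against neocortex, and CA1 against DG, with clusters of 1 position in red (329) and of 2 or more in blue (1711). In CA1 against DG the red curve centres near 0, with a median of 0.04, and the blue one lies to its right, with a median of 1.09.

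Genes with a called interior cluster were looked up for their strongest tested cluster near the start. Of 216 genes with an interior cluster higher in CA1 than in DG, 89 had such a cluster, which was called higher in 17, was called lower in 6 and had the same sign in 57. Over all 2775 genes with such a cluster, 17.8% were called higher and 76.9% had a positive sign. Of 18 genes lower in CA1, 13 had such a cluster, none was called lower, 1 was called higher and 5 had the same sign, and 2.34% of the 2775 were called lower. For the hippocampus against the neocortex, 112 genes were higher, 40 had such a cluster, 7 were called the same way and 24 had the same sign, against 9.30% called higher and 72.3% of positive sign among the 2775. For CB these numbers were 17, 8 and 1 among the higher genes and 20, 9 and 0 among the lower, against 0.396% called higher and 0.505% called lower. Whether the interior cluster of such a gene differed from its cluster near the start was not tested.

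No interior cluster was called for age or sex. In limma on the means of the 8 animal groups, 0 of 2040 passed for 10 and 20 yr against 1 and 4 yr, with 185 at an unadjusted p under 0.05, and 0 passed for females against males, with 115 at that level. Of all 7479 clusters 0% were called in either comparison, with 641 and 420 at that level. With no filter on low values, 1 interior cluster was called for sex. The median log2 difference was −0.24 for age and −0.14 for sex among interior clusters, and −0.23 and −0.14 among all.

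The balance of a gene was its interior against its near-start signal, log2(interior TPM + 1) minus log2(near-start TPM + 1), in the 974 genes with both in at least 8 libraries. It differed between CA1 and DG in 36 genes, 3.70% of those tested, 26 with more interior weight in CA1 and 10 with less. The split depended on the filter, with 29 and 31 genes when 4 libraries per class sufficed, and with 25 and 4 when libraries with neither class were set to missing. Leaving out animal groups in turn gave 9 to 44 genes, the fewest without 1M, with 12 without 1F, 4F or 4M, 13 without 20M and 18 without 20F. In the 5 largest of the 26 the start near the annotation was strong in DG and weak in CA1. TCEAL5, a small nuclear protein of the TCEAL family, had near-start sums of 0, 1094 and 2223 TPM in DG and 0, 8.87 and 40.9 TPM in CA1, while its interior sums in CA1 were 0, 58.8 and 91.0 TPM (9.99 ± 2.07, adjusted p = 0.00232, limma). FKBP8, an isomerase of the mitochondrial surface, had near-start medians of 1846 TPM in DG and 0 TPM in CA1, with interior medians of 40.6 and 57.2 TPM. TTC1, TCEAL6 and SAP30BP, a transcription and splicing cofactor, had near-start medians of 275, 841 and 207 TPM in DG and of 0, 3.62 and 0 TPM in CA1. In these 5 genes 1 DG library had no near-start tags.

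The reverse was seen in GAPDH, whose interior sums were 1451, 2267 and 3460 TPM in DG and 130, 390 and 611 TPM in CA1, while its near-start sums were 0, 2.87 and 87.0 TPM and 7.86, 43.4 and 64.5 TPM (−5.26 ± 1.43, adjusted p = 0.0261, limma). CHCHD5, a small mitochondrial protein, had interior medians of 160 TPM in DG and 34.1 TPM in CA1. Its gene overlaps ENSMMUG00000030661 on the same strand, so its tags depend on the gene models. NOC2L, a factor of ribosome assembly, SPACA9 and LIAT1 had near-start medians of 58.8, 95.0 and 41.6 TPM in CA1 and of 0 TPM in DG, with interior medians under 3 TPM in both. In these 3 the regions differed mostly near the annotated start.

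Between hippocampus and neocortex 5 genes differed in balance, 0.513% of those tested. None was called without 4F or without 20F, 2 without 1M, 3 without 1F and 7 without 4M. COX4I1, a subunit of cytochrome c oxidase, had interior sums of 0, 208 and 887 TPM in the hippocampus and 0, 38.8 and 832 TPM in the neocortex, with near-start medians of 5.18 and 122 TPM (5.29 ± 1.12, adjusted p = 0.00719, limma). COA6, an assembly factor of cytochrome c oxidase, went the other way, with interior medians of 7.24 and 66.1 TPM (−3.74 ± 0.95, adjusted p = 0.0423). ENSMMUG00000018502 was higher and ENSMMUG00000008344 lower.

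For CB 4 genes were called, 0.411%, and in 3 of these neither class had more than 1 CB library. CHGA, the secretory granule protein chromogranin A, and NRGN, the postsynaptic protein neurogranin, were listed at 0 in both classes in all 8 CB libraries, and SERPING1, a complement inhibitor, had near-start tags in 1. Their call compares the balance of the other regions with no signal. With such libraries set to missing, 0 genes were called for CB, and without 4F, 4M, 10M or 20F 2 were. ENSMMUG00000001262 was the fourth. For age and sex 0 of 974 genes were called, 0%, with 73 and 63 at an unadjusted p under 0.05 (limma).

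Genes known for internal promoters were taken as a list of 32, of which 31 were in the table, 30 had interior positions and 8.54% of their TPM was interior. The interior signal of most was sparse, and only 7 clusters in 5 genes, MBP, PDE4D, RTN4 and TCF4 among them, passed the filter. PDE4D, a cAMP phosphodiesterase with many start sites, had its leading cluster 405322 nt inside a span of 1016074 nt, with interior sums listed in 22 libraries and up to 2165 TPM, and no near-start tags in any. TCF4, a transcription factor of neurons, had 96.7% of its TPM inside, with the leading cluster 265946 nt into the gene and tags in 30 libraries. RTN4, which makes the Nogo proteins, had its leading cluster 41777 nt inside and tags in 30 libraries. NRXN3, a presynaptic adhesion protein, had 40 interior clusters and none that passed the filter. For MBP, whose model spanned 39513 nt, the cluster 29677 nt inside, 2 positions, was in 12 libraries. Of the TPM of MBP 0.463% was interior, with means of 12.021 TPM inside and 4.832 TPM near the start. Most of the TPM of MBP thus lay in the last part of the annotated span and not near the annotated start. Of the 7 clusters, 2 were higher in CA1 than in DG and 1 was higher in the hippocampus than in the neocortex. The counts called in this and the following lists stand against 13.7% of all clusters higher and 1.63% lower in CA1, 7.14% higher and 0.455% lower in the hippocampus, and 0.588% higher and 0.669% lower in CB.

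Neuronal lists differed widely in how much of their signal was interior, against 20.4% over all positions. Synaptic vesicle genes, 24 in the table, had 54.8% of TPM inside, most of it SNCB, which had 7 clusters that passed the filter. SYP, synaptophysin, had a median interior sum of 398 TPM in 61 libraries, with the leading cluster 1521 nt inside. AP2M1, of clathrin coats, was in 49 libraries and STX1A, a SNARE, in 29. Of 20 clusters tested, 1 was higher in CB, 1 was lower in the hippocampus, and 1 was higher and 2 lower in CA1 than in DG.

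Ion channels and pumps had 66.1% inside. KCNMA1, a potassium channel, was in 21 libraries and ATP2B2, a calcium pump, in 6. Of 9 clusters tested 1 was higher in CB, 1 lower in the hippocampus and 1 higher in CA1. Postsynaptic genes had 38.4% inside, with PPP1R9B, the spine protein spinophilin, at a median of 221 TPM in 56 libraries, CALM3, a calmodulin gene, at 54.1 TPM in 49, DLG4, the scaffold PSD-95, at 45.5 TPM in 46, and NCDN, neurochondrin, at 5.82 TPM in 37. Of 26 clusters tested 1 was higher in CB and 2 were higher and 1 lower in CA1.

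Cytoskeletal and axonal genes had 6.97% inside. GAP43, the growth cone protein, had a near-start mean of 5986 TPM and 1.13% of its TPM inside. Of the other 3 with the most interior TPM, MAP1A had 97.2% inside, NEFL, a neurofilament subunit, 93.9% and NEFM 48.8%. Of 24 clusters tested, 3 were higher in the hippocampus, 7 were higher in CA1 than in DG with a list median of 1.69, and 1, that of MAP1A, was lower in CB. Of all clusters 7.14% and 13.7% were higher in these comparisons, with a CA1 median of 0.91.

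Housekeeping lists were also uneven. Translation genes had 69.1% and glycolysis and energy genes 70.4% of TPM inside, the former with EEF2, an elongation factor, in 59 libraries and RPS3, a ribosomal protein, in 47, the latter with ENO2, neuronal enolase, in 49. RPL4 had the most interior TPM of the translation genes, a mean of 2309 against 286 for EEF2 and 134 for RPS3. GAPDH and ALDOA had the most of the glycolysis and energy genes, means of 1545 and 1087 against 105 for ENO2. Of 47 translation clusters 1 was higher in CB, 1 in the hippocampus, and 9 were higher and 1 lower in CA1, where 13.7% of all clusters were higher. Of 30 glycolysis and energy clusters 1 was higher in CB, 1 in the hippocampus, and 3 were higher and 2 lower in CA1. RNA-binding and splicing genes had 4.17% inside. There SON was an example of the opposite pattern, with 2474 TPM near the start and 1.26% of its TPM inside, and NCL, nucleolin, had 74.8% inside. HNRNPU was in 21 and RBM42 in 35 libraries. RBM42 had 0.827% of its TPM inside, with means of 34.0 TPM inside and 98.6 TPM near the start. Most of its TPM thus lay in the last part of the annotated span, so a low interior share need not mean signal near the start. Of 14 clusters tested 2 were higher in the hippocampus and 3 in CA1. Chaperone and turnover genes had 5.78% inside and 52 clusters tested, of which 3 were higher in the hippocampus and 6 in CA1. CLU had 17 of the 52. UCHL1, a neuronal ubiquitin hydrolase, had 92.1% and HSPA8, a heat shock cognate, 65.3% of TPM inside.

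Glial and vascular lists also ranged widely. Oligodendrocyte genes had 2.53% inside, with CRYAB in 34, TF in 17 and CNP in 10 libraries, and of 5 clusters tested 3 were higher in the hippocampus and 1 in CA1, against 7.14% and 13.7% of all clusters. Astrocyte genes had 13.7% inside and 30 clusters tested, 17 of them in CLU, and 3 were higher in the hippocampus and 7 in CA1. APOE, the lipid carrier, had a single interior cluster 1556 nt inside, in 53 libraries with a median of 99.9 TPM, and ALDOC was in 38 libraries. Microglial genes had 17.8% inside and 0 clusters tested, with C1QC in 15, TYROBP in 5, and P2RY12 and CSF1R in 2 libraries each. Endothelial and pericyte genes had 9.34% inside and 1 cluster tested, in ACTA2, which was not called, and ENG, PECAM1 and VWF were in 2 or 3 libraries.

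Markers of regional neurons differed as well. Cerebellar markers had 6.56% inside and 0 clusters tested, with ZIC2, GRM4, CBLN3 and PAX6 in 3 to 7 libraries. Neocortical markers had 40.6% inside and 9 clusters tested, of which 1 was lower in CB and 3 were higher in CA1. In that list MEF2C had 99.0% of its TPM inside, LAMP5 80.8%, CHN1 68.9% and NRGN 9.07%. Hippocampal markers had 4.69% inside and 2 clusters tested, both in C1QL2, of which none was called, and LHX2, HPCA and WFS1 had none tested. For each of the 16 lists 0 clusters were called for age or sex.

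Genes with many interior clusters were of unlike kinds. TAOK2 had 244, over a span of 1595943 nt on chromosome 20 that overlaps 19 other listed genes on its strand and 31 on the other, so these clusters may belong to other genes of the region. ENSMMUG00000005470 had 80 in only 31036 nt, of which 16 passed the filter, and PIP4K2C had 63 in 41099 nt, of which 13 passed. In PIP4K2C 99.96% of the TPM was interior. PCDH9, a protocadherin, and DLG2, a postsynaptic scaffold, had 73 and 59 over spans of 951358 and 1845736 nt, but 63 and 57 of these were listed in 1 library each and none passed the filter. Long genes thus held single-library clusters, while ENSMMUG00000005470 and PIP4K2C held clusters that recurred.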

How the data were processed

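CAGE-seq gave 64 libraries of 8 brain regions. Per the study's methods, polyadenylated RNA was treated with Terminator exonuclease, and cDNA was made by terminal tagging. The authors trimmed reads with FASTX-Toolkit, aligned them with TopHat2 to MMUL 1.0, kept reads with 1 location, took the 5′ end of each read as its start, and clustered neighbouring starts in each sample into TCs assigned to genes. The deposited values, which the authors call TPM, are RPM values, tags of a TC scaled to the tags of its library. Near-identical gene copies may therefore lose tags or have them assigned wrongly. No value above 0 was below 1 TPM, and the smallest stood for 2 to 7 tags, so rarer starts were not seen. No count model was run, because the values are not counts. No column of per-sample values was left out.

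Positions were classed by distance to the annotated start and by place in the span. Positions under 20 nt apart on a strand of a gene were joined into clusters, whose class was that of the leading position. A cluster was tested when 8 or more libraries had 1 TPM or more, with limma 3.58.1 on log2(TPM + 1) (R 4.3.3, eBayes with trend and robust off, two-sided, Benjamini-Hochberg adjustment over all 7479 clusters), in 1 model with region and animal group. Age and sex were compared on animal-group means over regions. Interior shares were tested by 100000 permutations of regions inside each animal group, and by two-sided sign flips over 8 groups and exact permutations of 4 against 4, adjusted over 10 tests. Other steps ran in Python 3.11.15 with pandas 2.3.3, NumPy 2.4.6 and Matplotlib 3.10.9. The scripts were tested on simulated data.

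Libraries of an animal group came from the same animals, so the animal group was kept as a block. The correlation of deviations from region means averaged 0.014 within animal groups (−0.087 to 0.225, 224 pairs) and −0.002 between (1568 pairs). The pairing therefore comes from the animals and not from the values. P-values of the sign-flip tests and of the age and sex tests measure the spread between animal groups. Those of the region F test and of limma for regions use the spread left after region and animal group, over all 64 libraries.

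The genes named are the 20 strongest interior clusters of genes with a symbol, 1 a gene, up to 8 called clusters each way per comparison with the same sign in every animal group, up to 5 genes each way per comparison of balance, up to 4 genes of each list, and the 6 genes with the most clusters. Some genes these rules name are not reported here. Symbols were matched by gene ID to a name table of another assembly (T2T-MMU8v2.0), used for names only. The members and the gene lists were chosen with earlier results of these data known. Alternatives were another pseudocount, filters, quantile normalization, a stricter rule for the interior, no replicate block, and leaving out each animal group in turn. Those added after seeing the data are named as such. Sequences were not analysed here.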

Additional observations from a re-analysis of the deposited data

Results flagged for a closer look

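In 58 groups of 8 values, the highest or lowest was compared with the rest of its group, and 12 lay apart, with a gap over the range above 0.526. Most groups were the 8 libraries of 1 region in 1 measure, and the others were the 8 animal groups in a recurrence share. For independent normal values chance gives about 1 in 20, but measures of the same library are related. PFC 1M had the most interior positions, 3945 against 1915 in the next library, and the most genes with them, 2124 against 1212. OC 20M had 2426 positions against 1564, and its share of interior genes without a near-start position was the lowest, 69.7% against 74.1%. DG 10M had 2376 positions against 1100 and 1457 genes against 793. CA1 20F had 9508 positions against 5330 and 24.7% of its TPM inside against 21.4%. The median TPM of a listed interior position was highest in the temporal cortex library 10F, at 200.0 against 36.0, in PC 20F, at 192 against 65.9, and in CB 10F, at 266 against 70.6. In the temporal cortex library 10F, 87.2% of interior genes had no near-start position, against 76.5% in the next. No difference of age or sex between regions passed the threshold.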

How the results depend on the processing

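Of 317 recomputed values that answer a comparison, 265 kept their direction and their side of the threshold or stayed within 1.5 times the count. The share of TPM at interior positions differed between regions past the threshold with the stricter rule for the interior, more than 2000 nt inside and in the first 50% of the gene (F = 2.996, adjusted p = 0.0346), and with the 500 positions of highest TPM in each library, an alternative chosen after seeing the data (F = 4.41, adjusted p = 0.0084). In that share the CB difference turned positive without positions near another listed start (0.122) and with the 500 positions (0.827), the hippocampal one with the stricter rule (0.538, adjusted p = 0.0391 by the exact sign-flip test), and the female one with the 500 positions (0.146). Leaving out animal groups in turn gave −0.65 to 0.27 for CB, positive without 10M (0.268) or 20F (0.0853), and −0.82 to 0.14 for sex, positive without 1M (0.139) or 20F (0.0127). In the share of positions, the 500 positions gave F = 1.20 for regions, −0.86 for the hippocampus and 0.56 for sex, and leaving out CA1, also added later, gave −0.82 for the hippocampus, whose range over left-out animal groups was 2.33 to 3.32.

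Interior clusters called with positions as deposited numbered 13 for CB, 23 for the hippocampus and 49 for CA1 against DG. Quantile normalization gave 73 and 129 for the latter pair, and values under 20 TPM set to 0, added later, gave 40 and 93. Leaving out CA1 gave 12 for the hippocampus and leaving out DG 425, both added later. For sex, 1 was called with no filter. Leaving out animal groups gave 29 to 45, 93 to 137 and 192 to 294. When 4 libraries per class sufficed for a gene to be tested for balance, the genes called numbered 14, 32 and 60, and for CB a pseudocount of 0.25 gave 2 and missing libraries 0. Their ranges over left-out animal groups were 2 to 7, 0 to 7 and 9 to 44. The causes were not tested.

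Without the replicate block of animal groups, 37, 131 and 278 clusters and 3, 5 and 40 genes were called, and the block changed no call of the share tests. Of 883 recomputed values of the 59 named differences, 744 kept direction and side, 137 lost the threshold and 2 reversed, RPAIN with positions as deposited (−0.67) and SNCB without CA1 (0.19), both for the hippocampus. Of the 59, 19 stayed past the threshold throughout. Depth limits what is seen, since no start below 1 TPM was listed and libraries differed in how many positions they listed.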
